A study of Mus musculus with 20 samples.

Results

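Glutathione and antioxidant genes were followed over age in the retina of mice that lack Nrl, a transcription factor needed for young photoreceptors to become rods, without which cone-like cells form instead. The list held 10 genes, Slc7a11, Gclc, Gclm, Gpx3, Sod3, Prdx6, Txnrd1, Srxn1, Hmox1 and Nqo1, found through the platform's gene annotation. That annotation gave them 97 probe sets (groups of array probes for a stretch of 1 exon) that it assigned to no other gene, of 179496 such probe sets and 15800 genes in all. The mice were Nrl-/- on the C57Bl/6J strain and were sampled at 1, 2, 4, 6 and 10 months after birth, with 4 mice at each age. Each of the 20 Affymetrix exon arrays held RNA of the 2 retinas of 1 mouse, so that replicates were separate animals. Every group carried the Nrl deletion, and no wild type retina was analysed here, so what follows from losing Nrl and what comes with age in any mouse cannot be told apart. Whole retinas were measured, and more RNA per cell cannot be told apart from a larger share of the cells that hold it.

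Cells remove hydrogen peroxide and lipid peroxides with the tripeptide glutathione and with the thioredoxin system. Slc7a11 is the transport subunit of the antiporter that brings cystine into the cell in exchange for glutamate, and Gclc and Gclm are the catalytic and the modifier subunit of the ligase that joins cysteine to glutamate, the rate-limiting step of glutathione synthesis. Peroxidases and peroxiredoxins then spend reduced glutathione or thioredoxin on peroxides. Many genes of both systems are known targets of the transcription factor NRF2 (Nfe2l2), and Slc7a11 is also a target of ATF4, which acts when amino acids run short. In the eye, Müller glia, the pigment epithelium and the ciliary body are known for high antioxidant capacity, while photoreceptors carry a large load of oxygen and oxidisable lipid.

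Levels are log2 intensities of a gene on an array, summarised over its probe sets, and a step of 1 is a doubling. The retinal label was borne out by cone genes, with the cone transducin Gnat2 between 12.9 and 13.1 and the short-wavelength opsin Opn1sw between 13.5 and 13.8 on all arrays. Cone genes as a list were not constant over age. The mean over 11 of them was 11.60 to 11.72 at 1 month, 11.53 to 11.75 over the ages between, and 11.30 to 11.39 at 10 months. Some arrays stood apart in genes of other tissue at the edge of the retina. Optc, which encodes opticin, a protein that the ciliary body secretes into the vitreous, was 7.78 or higher on 6 arrays and 6.95 or lower on the other 14, the widest gap in its values. These 6 arrays were replicates 2 and 3 of 2 months, replicate 2 of 6 months, and replicates 1, 3 and 4 of 10 months, with none at 1 or 4 months. Optc was looked at after the levels of Gpx3 had been seen. Lens genes had a mean over 13 genes of 6.38 to 7.08 at 1 month. Replicate 2 of 6 months, an array with high Optc, lay within that range at 6.52. All other later arrays were at 5.44 to 6.02. Eif2s3y and Kdm5d, which lie on the Y chromosome, were low, with a mean of 4.01 to 4.43, on all arrays of 2 months and on replicates 2 and 3 of 10 months, and at 7.33 or higher on all others. The labels give no batch, litter or scan date.

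Most of the 10 antioxidant genes were higher in the oldest retinas, and none was called lower in any comparison. Between 10 months and 1 month 9 of the 10 rose (all but Gclc), with a median difference over the 10 genes of 0.43 on the log2 scale, where the median over all 11850 genes tested was 0.04. Called means an adjusted p under 0.05 in limma, from a single fit over the 20 arrays in which every age had its own mean. By that rule 41.3% of all genes tested changed between these ages, and 20.6% of all genes changed upward. The 4 arrays of 10 months lay above all 4 of 1 month for 6 of the 10, against 18% of all genes. The members were chosen with earlier results of these data known, so these counts describe the 10 genes and carry no test against all genes. All 10 genes had passed the filter that removed the dimmest 25% of genes (mean level under 5.61), with Nqo1 the nearest to it at a mean of 5.90.

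The earlier ages gave fewer calls. Prdx6 and Slc7a11 were already called at 2 months against 1 month (2 of 10 genes, against 8.58% of all genes in either direction and 3.31% upward). At 4 months against 1 month Srxn1 joined them (3 of 10, against 15.2% and 6.93% upward), and at 6 months against 1 month Prdx6, Slc7a11, Srxn1 and Gclm were called (4 of 10, against 16.3% and 7.89% upward). The later arrays all lay above those of 1 month for 5, 4 and 4 of the genes at 2, 4 and 6 months, where 7.53%, 8.36% and 11.3% of all genes did so. These comparisons share the 4 arrays of 1 month, so they are not independent of each other. All arrays of 2 months were low in the Y-linked genes and all of 1 and 4 months were high. For every gene named here, a difference between 2 months and either age thus cannot be told apart from one that goes with those genes. The labels give no sex. Between neighbouring later ages none of the 10 was called at 4 months against 2 months (0.118% of all genes were, and none of the 10 had an unadjusted limma p under 0.05) or at 6 months against 4 months (0% of all genes, with 534 genes and 1 of the 10, Hmox1, at an unadjusted limma p under 0.05). The other settings tried also gave 0 for both. At 10 months against 6 months Prdx6, Srxn1, Hmox1 and Sod3 rose (4 of 10, against 20.3% and 8.62% upward), and for 3 of the 10, against 10.6% of all genes, the arrays of the 2 ages did not overlap. An F test over the 5 ages called 7 of the 10, all but Gclc, Txnrd1 and Nqo1, against 38.4% of all genes.

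**Figure D1:**
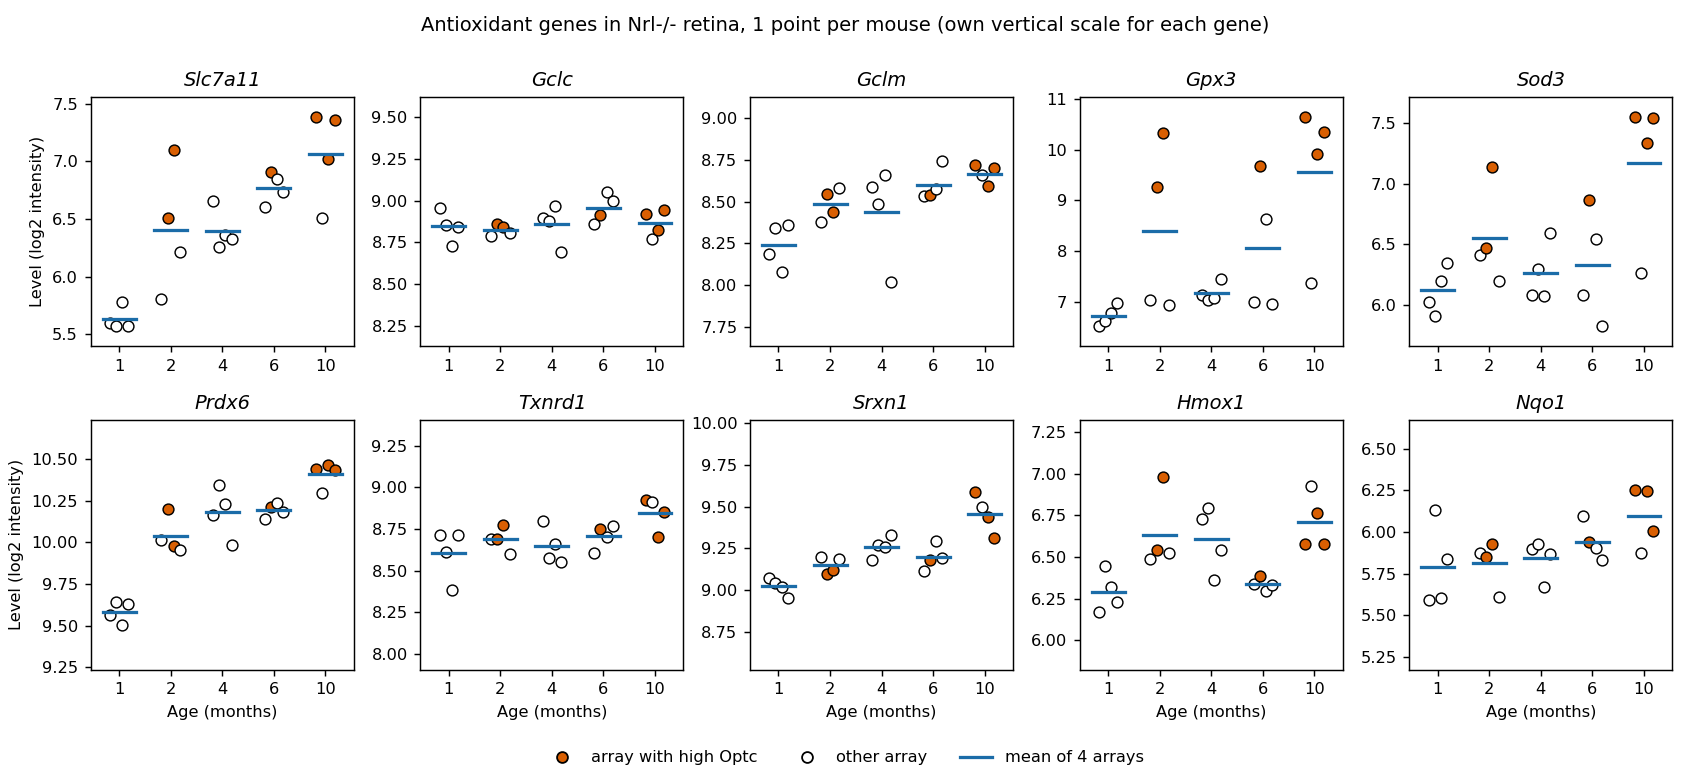
Level (log2 intensity) of each of the 10 genes against age in months, with 1 point per mouse, a blue line at the mean of the 4 arrays and filled points for the 6 arrays with high Optc; each gene has its own vertical scale. Gpx3 and Sod3 spread widely within 2, 6 and 10 months with the filled points on top, Prdx6 rises with little spread, and Gclc stays between 8.69 and 9.05.

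Slc7a11 was the gene of cystine import and glutathione synthesis that changed most. At 1 month its level was 5.60, 5.57, 5.78 and 5.57 in replicates 1 to 4, and at 2 months it was 5.80, 6.51, 7.10 and 6.22. At 4 months it was 6.66, 6.26, 6.36 and 6.32, at 6 months 6.60, 6.90, 6.84 and 6.73, and at 10 months 7.38, 6.51, 7.02 and 7.36. Every array of 2, 4, 6 and 10 months lay above every array of 1 month, although the lowest array of 2 months cleared the highest of 1 month narrowly. The difference of 10 months against 1 month was 1.44 ± 0.21 (SE, n = 4 arrays per age), a 2.70-fold higher level (adjusted p = 2.27e-05, limma). The rises over 1 month were 0.78 at 2 months (adjusted p = 0.0257), 0.77 at 4 months (0.0169) and 1.14 at 6 months (0.000973). Means at 4 and 2 months were 6.40 and 6.41 and differed by less than their spread, and the steps of 6 months against 4 months (0.37, adjusted p = 0.894) and of 10 months against 6 months (0.30, adjusted p = 0.335) were not called.

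The order of the arrays within an age followed Optc in part. The 2 highest arrays of 2 months and the 3 highest of 10 months were those with high Optc. Without the 6 arrays the difference of 2 months against 1 month was 0.38 (adjusted p = 0.191) and that of 10 months against 1 month was 0.87 (adjusted p = 0.00528), with a single array left at 10 months that was assumed to vary like the others. At 4 months no array had high Optc, and the rise over 1 month was 0.77 without the 6 arrays too (adjusted p = 0.000864). After quantile normalization it was 0.66 (adjusted p = 0.0611). The call at 2 months was also lost on leaving out replicate 1 or 2 of 1 month or replicate 2 or 3 of 2 months, with differences of 0.55 to 0.76 and adjusted p up to 0.087 in limma, and with the mean level of 6 ciliary body genes as a covariate (0.51, adjusted p = 0.0705). Since all arrays of 2 months were low in Y-linked genes and all of 1 month were high, that step also cannot be told apart from a difference that goes with those genes. With a covariate for them the step was 1.52 (adjusted p = 0.0575, limma). The ages do not overlap in those genes, so the covariate cannot separate them from age.

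The promoter of Slc7a11 in the RefSeq table for GRCm38.p6 is shown because a search of the letters found 2 copies of an ATF4 motif in it. The window runs from 250 bases before the start site to 50 after it (chr3:50443564-50443863, minus strand, printed 5′ to 3′ along the gene), with the motif TGATGCAA of the amino acid response element in capitals, once on each strand and without overlap.

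Slc7a11: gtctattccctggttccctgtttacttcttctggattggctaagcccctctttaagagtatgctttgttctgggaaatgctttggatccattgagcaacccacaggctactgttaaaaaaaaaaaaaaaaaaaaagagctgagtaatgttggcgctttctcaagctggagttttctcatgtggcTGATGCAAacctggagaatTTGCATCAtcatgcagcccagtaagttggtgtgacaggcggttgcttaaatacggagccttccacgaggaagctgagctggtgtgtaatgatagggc

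The matches begin at positions -66 and -47 relative to the start site. Of 32851 promoter windows of the same length 0.895% held TGATGCAA on either strand at least once, and 2 windows, this one among them, held it 2 times or more. A match describes the letters and does not show that ATF4 binds there in these retinas.

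Gclm rose and Gclc did not pass the test. Gclm, the modifier subunit, had 8.18, 8.34, 8.08 and 8.36 at 1 month, 8.38, 8.54, 8.44 and 8.58 at 2 months, and 8.59, 8.48, 8.66 and 8.02 at 4 months. Its levels were 8.54, 8.54, 8.58 and 8.74 at 6 months and 8.72, 8.66, 8.60 and 8.70 at 10 months. At 2, 6 and 10 months all arrays lay above all arrays of 1 month, while replicate 4 of 4 months was the lowest of all 20 arrays. That array also had the lowest mean correlation with the others over the genes tested. The difference was 0.43 ± 0.105 at 10 months against 1 month (1.34-fold, adjusted p = 0.00304, limma) and 0.36 ± 0.105 at 6 months against 1 month (adjusted p = 0.0246). The call at 6 months was lost without replicate 1 or 3 of 1 month or replicate 3 or 4 of 6 months (differences of 0.30 to 0.37, adjusted p up to 0.0868), with the brightest probe set alone (0.16, adjusted p = 0.32) and without the 6 arrays high in Optc (0.38, adjusted p = 0.0977). At 4 months the difference of 0.20 (adjusted p = 0.231) became 0.34 (adjusted p = 0.00589) without replicate 4 of 4 months.

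Gclc, the catalytic subunit, kept means of 8.85, 8.82, 8.86, 8.96 and 8.87 over the 5 ages. Its lowest and highest arrays were 8.69 and 9.05, both outside the 10 month group. The difference of 10 months against 1 month was 0.02, with a 95% interval of -0.12 to 0.15 (adjusted p = 0.827, limma), and 94.1% of all genes tested had a larger absolute difference.

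Gpx3, the secreted glutathione peroxidase, had the largest difference of the 10 genes and the widest spread between mice of an age. At 1 month it measured 6.53, 6.62, 6.78 and 6.97 in replicates 1 to 4, and at 4 months 7.13, 7.04, 7.07 and 7.44. At 2 months it measured 7.04, 9.27, 10.33 and 6.94, at 6 months 6.98, 9.68, 8.63 and 6.95, and at 10 months 10.64, 7.37, 9.91 and 10.34. Arrays of 2, 6 and 10 months thus fell into a low set of 6.94 to 7.37 and a high set of 8.63 or more, and no array of 1 or 4 months was in the high set. The difference of 10 months against 1 month was 2.84 ± 0.75 (7.18-fold, 95% interval 1.28 to 4.41, adjusted p = 0.00498, limma), and 0.00844% of all genes tested had a larger absolute difference. It was 1.67 ± 0.75 at 2 months, 0.45 at 4 months and 1.34 at 6 months against 1 month, none of them called (adjusted p = 0.193, 0.747 and 0.247). The ages in order of mean were 10, 2, 6, 4 and 1 months, and of neighbours in that order 6 against 4 months (0.89, adjusted p = 0.894) and 4 against 1 month were tested and not called. At 4 months all arrays lay above all of 1 month, and in a fit of these 8 arrays alone the difference was called (adjusted p = 0.0497). Against 6 months, Gpx3 at 10 months was called only without replicate 2 of 10 months (2.24, adjusted p = 0.0295, and adjusted p = 0.168 with it).

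Sod3, the extracellular superoxide dismutase, had 1 low and 3 high arrays at 10 months. It measured 6.03, 5.91, 6.19 and 6.35 at 1 month, 6.41, 6.47, 7.14 and 6.19 at 2 months, and 6.08, 6.29, 6.07 and 6.60 at 4 months. At 6 months it measured 6.08, 6.86, 6.55 and 5.83, and at 10 months 7.55, 6.26, 7.34 and 7.54. Replicate 2 of 10 months lay within the range of 1 month, and the other 3 arrays of that age were the highest of all 20. Sod3 was 1.05 ± 0.27 higher at 10 months against 1 month (2.08-fold, adjusted p = 0.00369, limma) and 0.84 ± 0.27 higher at 10 months against 6 months (adjusted p = 0.0302). At 2, 4 and 6 months against 1 month it differed by 0.43, 0.14 and 0.21, none of them called (adjusted p = 0.371, 0.777 and 0.665). The call against 6 months was lost without replicate 1 or 4 of 6 months or replicate 1, 3 or 4 of 10 months (differences of 0.68 to 0.79, adjusted p up to 0.11), and under 7 of the other settings tried.

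The high values of Gpx3 lay on the arrays with high Optc. Its 6 highest values, 9.27 to 10.64, were those of the 6 arrays, against 6.53 to 8.63 on the other 14, and the next highest Gpx3 array, replicate 3 of 6 months, was also the next highest in Optc at 6.95. Of 6 genes known from the ciliary body that were listed after seeing these data, Optc, Best2 and Gja1 (a chloride channel and a gap junction protein) had their 6 highest values on these arrays, and Aqp1, Otx1 and Msx1 did not. Of 7 fibroblast and sclera genes, Ogn did too (4.38 to 6.00 against 3.40 to 4.20) and the others did not. The mean over the 7 was 5.65 to 6.27 at 10 months and 5.38 to 5.75 at 1 month. Which tissue these arrays carried was not tested. Sod3 was 6.47 to 7.55 on the 6 arrays and 5.83 to 6.60 on the others, a slight overlap.

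Pigment epithelium genes followed Gpx3 on some arrays and not on others. The visual cycle gene Rpe65 was 7.63, 7.25 and 8.61 in replicates 1, 3 and 4 of 10 months and 6.35 in replicate 2, but 6.46 and 6.30 in replicates 2 and 3 of 2 months, where Gpx3 was high, against 6.15 to 6.75 at 1 month. The melanin synthesis genes Dct and Tyrp1 were 9.02 and 7.60 in replicate 2 of 6 months and 10.54 and 8.97 in replicate 1 of 10 months. In replicates 2 and 3 of 2 months Tyrp1 was 6.50 and 6.78, against 6.49 to 6.91 at 1 month. Dct was 7.05 and 7.98 in these replicates, against 7.37 to 7.76 at 1 month, so that replicate 3 lay above all arrays of 1 month and replicate 2 below them. The mean over 13 pigment epithelium genes was 6.81 to 8.21 at 10 months and 6.96 to 7.26 at 1 month, and 6.96 and 7.03 in the 2 arrays of 2 months with high Gpx3. The ciliary body level, as a mean over its 6 genes, was 6.09 to 7.37 at 10 months and 5.87 to 6.23 at 1 month.

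**Figure D2:**
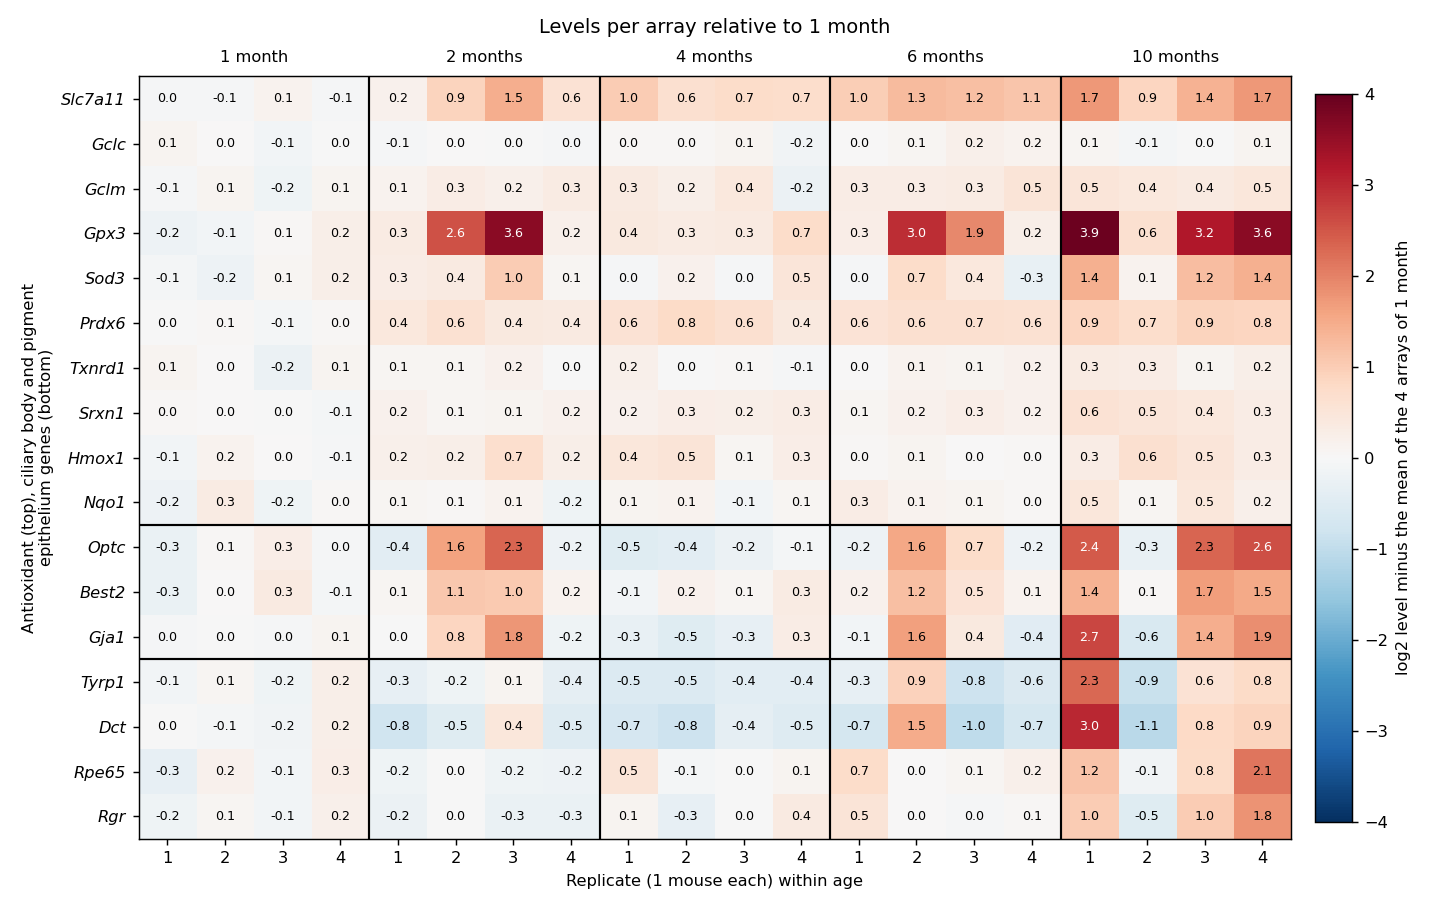
Each cell gives the log2 level of a gene (rows) on 1 array (columns, replicates 1 to 4 within 1, 2, 4, 6 and 10 months) minus that gene's mean at 1 month, red for higher and blue for lower. The columns in which Gpx3 is 2.55 or more above 1 month are those in which Optc is 1.56 or more above it, whereas Rpe65 and Rgr have their 3 highest values in replicates 1, 3 and 4 of 10 months.

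With the ciliary body level as a covariate (the mean of the 6 genes), an alternative chosen after seeing the data, the difference of Gpx3 at 10 months against 1 month was 0.37 (adjusted p = 0.491, limma), and that of Sod3 was 0.21 (adjusted p = 0.362). With the pigment epithelium level as a covariate they were 1.58 (adjusted p = 0.117) and 0.53 (adjusted p = 0.0989). Without the 6 arrays they were 0.65 (adjusted p = 0.405) and 0.14 (adjusted p = 0.763), with 1 array left at 10 months. The ciliary body covariate left Prdx6 at 0.78 (adjusted p = 1.15e-05), Slc7a11 at 0.90 (adjusted p = 0.00192), Srxn1 at 0.45 (adjusted p = 0.000355), Gclm at 0.52 (adjusted p = 0.00803) and Hmox1 at 0.41 (adjusted p = 0.0449). Nqo1, at 0.14 (adjusted p = 0.496), and Txnrd1, at 0.27 (adjusted p = 0.0558), were not called with it. These 5 calls of 10 compare with 25.9% of all genes called in the same fit, 12.6% upward. Without the 6 arrays 4 of the 10 genes were called at 10 months against 1 month, Prdx6, Slc7a11, Srxn1 and Hmox1, where 14.2% of all genes were, 6.08% upward, and Gclm was 0.42 (adjusted p = 0.197) and Txnrd1 0.31 (adjusted p = 0.149). At 10 months against 6 months Sod3 was 0.28 with the ciliary body covariate (adjusted p = 0.218), 0.27 with the pigment epithelium covariate (adjusted p = 0.551) and 0.11 without the 6 arrays (adjusted p = 0.883). Optc was among the genes that ran most like Gpx3 over the arrays (r = 0.97), and Gja1 ran most like Sod3 within ages (r = 0.92). The covariate holds both genes and the 6 arrays were split on Optc. Smaller differences for Gpx3 and Sod3 were therefore set in advance by that choice and carry no test. A covariate that rises with age also takes up part of the age difference. These values thus do not show which part of a rise goes with ciliary body RNA, and that part was not tested otherwise.

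**Figure D3:**
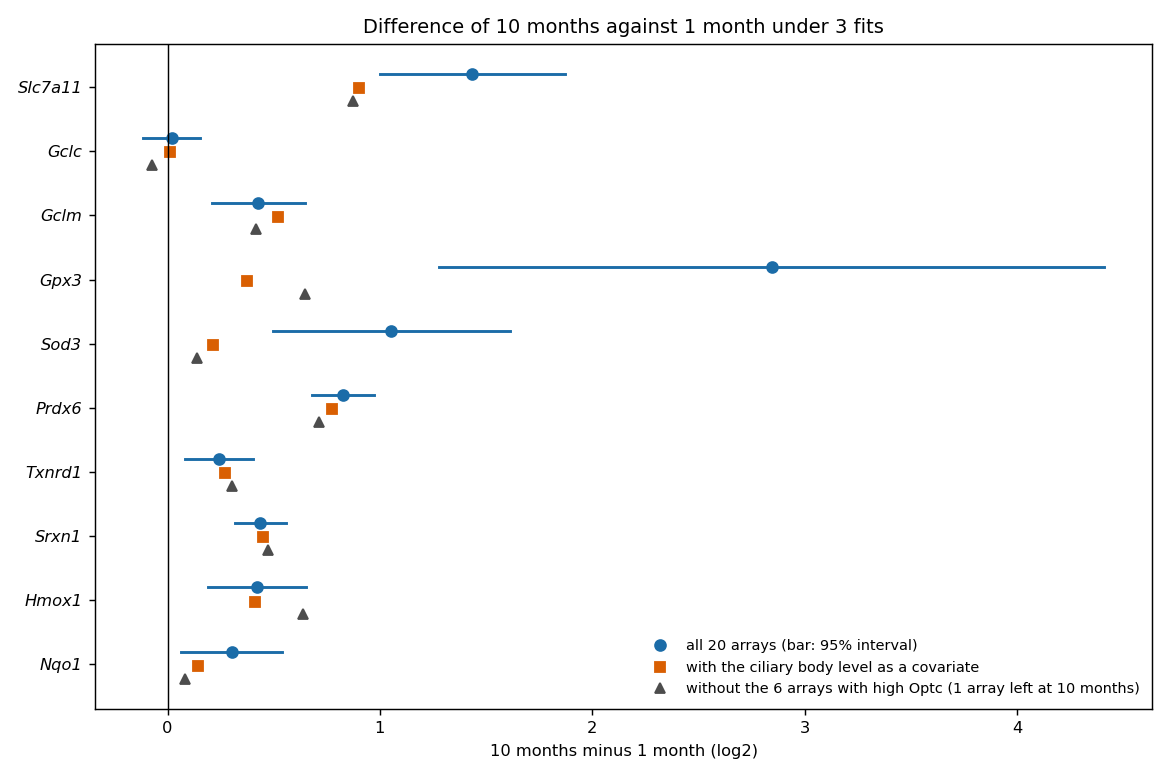
Difference of 10 months against 1 month (log2, horizontal) for each gene, from all 20 arrays (circles with 95% intervals), with the ciliary body level as a covariate (squares) and without the 6 arrays with high Optc (triangles). Gpx3 lies at 0.37 and 0.65 under the other fits, where all arrays give 2.84, and Sod3 at 0.21 and 0.14. Slc7a11 also lies below its interval of 1.00 to 1.87, at 0.90 and 0.87. The other genes stay within their intervals. Gpx3 and Sod3 run like genes of the covariate over the arrays, so their smaller values follow from that choice.

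Prdx6, a peroxiredoxin that reduces phospholipid hydroperoxides with glutathione, showed the steadiest rise. Its level was 9.56, 9.64, 9.50 and 9.63 at 1 month, 10.01, 10.20, 9.98 and 9.96 at 2 months, and 10.17, 10.34, 10.23 and 9.99 at 4 months. It was 10.14, 10.21, 10.24 and 10.18 at 6 months and 10.44, 10.30, 10.47 and 10.43 at 10 months. All 16 later arrays lay above all 4 arrays of 1 month, and the 4 of 10 months above the 4 of 6 months. The rise over 1 month was 0.45 ± 0.07 at 2 months (adjusted p = 0.0006), 0.60 ± 0.07 at 4 months (1.89e-05), 0.61 ± 0.07 at 6 months (1.38e-05) and 0.83 ± 0.07 at 10 months (1.77-fold, 5.62e-08), all from limma. These 4 calls held on leaving out any 1 of the 8 arrays compared. On leaving out the 6 arrays with high Optc the calls at 2, 4 and 6 months held (0.40, 0.60 and 0.60), and the difference at 10 months was 0.71. That left 2, 4, 3 and 1 arrays at 2, 4, 6 and 10 months, so that nothing was removed at 4 months. With a covariate for the Y-linked genes the difference at 2 months was 0.54 (adjusted p = 0.0701). The covariate cannot separate those genes from age there, since 2 months and 1 month do not overlap in them. The step of 10 months against 6 months, 0.22 (adjusted p = 0.0322), was lost on leaving out any of 6 arrays, replicates 1, 2 and 4 of 6 months and replicates 1, 3 and 4 of 10 months (0.20 to 0.22, adjusted p up to 0.0842). It was lost under 7 of the other settings too, among them the brightest probe set alone (0.11, adjusted p = 0.477). Without the 6 arrays high in Optc the step was 0.11 and not called, with 1 array left at 10 months.

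Müller glia genes rose over the same ages. The mean over 16 of them was 10.20 to 10.32 at 1 month, 10.38 to 10.49 at 2 months, 10.46 to 10.56 at 4 months, 10.54 to 10.63 at 6 months and 10.56 to 10.73 at 10 months. Of the 16, 5, 10, 13 and 15 were called higher and none lower at 2, 4, 6 and 10 months against 1 month, where 3.31%, 6.93%, 7.89% and 20.6% of all genes were called higher. The part of these cells in the rises of Prdx6 and Slc7a11 was not tested. Of 11 cone genes 1 was called higher and 6 lower at 10 months against 1 month, where 20.6% and 20.7% of all genes were. At 10 months against 6 months 0 were higher and 7 lower (8.62% and 11.7% of all genes). The part of this fall in the rises of the 10 genes was not tested either.

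In the thioredoxin system Srxn1, the sulfiredoxin that restores peroxiredoxins whose active cysteine has been overoxidised, rose at 4, 6 and 10 months. It had 9.07, 9.04, 9.02 and 8.95 at 1 month, 9.20, 9.10, 9.12 and 9.18 at 2 months, and 9.18, 9.27, 9.26 and 9.33 at 4 months. It had 9.11, 9.18, 9.29 and 9.19 at 6 months and 9.59, 9.50, 9.44 and 9.31 at 10 months. Every later age lay above 1 month without overlap, and 10 months lay above 6 months. The difference was 0.44 ± 0.06 at 10 months against 1 month (1.35-fold, adjusted p = 7.87e-06, limma), 0.24 ± 0.06 at 4 months (adjusted p = 0.00867), 0.17 ± 0.06 at 6 months (adjusted p = 0.0459) and 0.13 ± 0.06 at 2 months (adjusted p = 0.193). It was 0.26 ± 0.06 higher at 10 months against 6 months (adjusted p = 0.00286). The call at 6 months was lost on leaving out any 1 of 7 arrays, all but replicate 1 of 6 months (0.14 to 0.19, adjusted p up to 0.15), and under 8 of the other settings tried (0.16 to 0.18, adjusted p up to 0.08). With the brightest probe set alone in place of the summary of all 8, the differences at 4, 6 and 10 months against 1 month were 0.23, -0.03 and 0.08 (adjusted p = 0.123, 0.909 and 0.508), and 10 months against 6 months was 0.10 (adjusted p = 0.507). Without the 6 arrays high in Optc the difference of 10 months against 6 months was 0.30 and not called, with 1 array left at 10 months.

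The promoter of Srxn1 is shown because its window holds an antioxidant response element, the NRF2 motif TGAGTCAGC in capitals (GRCm38.p6, chr2:152105274-152105573, plus strand).

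Srxn1: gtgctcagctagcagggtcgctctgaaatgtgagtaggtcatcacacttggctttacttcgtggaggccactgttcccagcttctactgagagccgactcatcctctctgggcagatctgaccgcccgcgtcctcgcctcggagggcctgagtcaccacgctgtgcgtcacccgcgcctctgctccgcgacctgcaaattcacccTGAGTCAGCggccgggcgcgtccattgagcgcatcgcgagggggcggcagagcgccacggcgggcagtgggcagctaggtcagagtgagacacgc

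The match begins at position -45 relative to the start site, and 0.414% of the 32851 windows held this motif on either strand. The form with the other middle base, TGACTCAGC, was in none of the 6 listed genes that had a window (Slc7a11, Gclm, Gpx3, Txnrd1, Srxn1 and Nqo1) and in 0.454% of all windows. The core TGACNNNGC, which the marked site does not match, was in 3 of the 6 and in 12.4% of all windows. The 3 were Gclm, Txnrd1 and Srxn1, the last at another site, position 29. The shorter core TGANNNNGC, which the marked site does match, was in 4 of the 6 (Srxn1, Slc7a11, Gclm and Txnrd1) and in 41.3% of all windows. No value here bears on binding of NRF2.

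Txnrd1, the cytosolic thioredoxin reductase, had medians of 8.66, 8.69, 8.62, 8.73 and 8.88 over the 5 ages. Its arrays ran from 8.70 to 8.92 at 10 months and from 8.38 to 8.72 at 1 month, so the ages overlapped slightly. The difference was 0.24 ± 0.08 (1.18-fold, adjusted p = 0.0152, limma), and 37.7% of all genes had a larger absolute one. It fell short without replicate 3 of 1 month (0.17, adjusted p = 0.0643) and under 4 of the other settings tried (0.24 to 0.31, adjusted p up to 0.149).

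Hmox1, the enzyme that degrades heme, was called higher at 10 months, while its level at 6 months was near that of 1 month. It measured 6.17, 6.44, 6.32 and 6.23 at 1 month, 6.49, 6.54, 6.98 and 6.52 at 2 months, and 6.73, 6.79, 6.36 and 6.54 at 4 months. It measured 6.34, 6.39, 6.29 and 6.33 at 6 months and 6.58, 6.93, 6.76 and 6.58 at 10 months. Arrays of 6 months were within the range of 1 month, and those of 2 and of 10 months were above it. Hmox1 was 0.42 ± 0.11 higher at 10 months against 1 month (1.34-fold, adjusted p = 0.00475, limma) and 0.37 ± 0.11 higher at 10 months against 6 months (adjusted p = 0.021). The differences of 0.34 at 2 months and 0.32 at 4 months against 1 month just missed the threshold (adjusted p = 0.0619 and 0.059), and 6 months against 4 months was -0.27 (unadjusted p = 0.0243, adjusted p = 0.894, limma). The call of 10 months against 6 months was lost without replicate 3 of 6 months or replicate 2 or 3 of 10 months (0.30 to 0.36, adjusted p up to 0.0738), and at 4 months a call was gained without replicate 3 of 4 months (0.40, adjusted p = 0.025). With a covariate for the Y-linked genes the difference of 10 months was 0.23 against 1 month (adjusted p = 0.24) and 0.22 against 6 months (adjusted p = 0.299). Genes of microglia and macrophages, cells known to express Hmox1, had a mean over 15 genes of 7.14 to 7.31 at 2 months, 7.03 to 7.10 at 4 months, 6.84 to 7.03 at 6 months and 6.67 to 6.85 at 10 months, against 6.78 to 6.91 at 1 month. The median difference of the 14 of them that were tested was -0.05 at 10 months against 1 month, and the part of these cells at 2 and 4 months was not tested.

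Nqo1, the quinone reductase, was the dimmest of the 10 and the least secure call. Its arrays ran from 5.87 to 6.25 at 10 months and from 5.59 to 6.13 at 1 month, which overlap. The difference was 0.30 ± 0.11 (1.23-fold, adjusted p = 0.0388, limma), and no earlier age was called, with differences of 0.02, 0.05 and 0.15 at 2, 4 and 6 months against 1 month. It was lost without replicate 1, 3 or 4 of 1 month or replicate 1 or 3 of 10 months (0.24 to 0.32, adjusted p up to 0.131), and under 10 of the other settings tried (0.08 to 0.34, adjusted p up to 0.818).

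The single probe sets showed how evenly each difference ran along a transcript. Those of 1 gene were measured on the same arrays and are not independent. The share of all probe sets without overlap is not given here, while 18% of all genes were higher without overlap. Some probe sets were dim, with mean levels down to 2.80 for Slc7a11, 3.15 for Txnrd1, 3.30 for Hmox1 and 4.13 for Gpx3. All 8 probe sets of Gpx3 were higher at 10 months against 1 month with no overlap between the ages, by 0.54 to 3.81. All 13 of Slc7a11 were higher, 10 of them with no overlap, by 0.65 to 2.04. Those of Gclm (7), Prdx6 (7), Txnrd1 (17), Srxn1 (8) and Hmox1 (8) were all higher too, with no overlap in 5, 5, 2, 5 and 2 of them. For Sod3 4 of 5 were higher, from -0.03 to 2.05, and the differences of 2 probe sets without overlap, 2.05 and 1.31, belonged to the 2 brightest. The brightest probe set of Srxn1, with a mean level of 11.5, differed by 0.08 only, where the other 7 differed by 0.44 to 0.60. For Nqo1 7 of 8 were higher, from -0.06 to 0.65, and none was without overlap. For Gclc 8 of 16 were higher and 8 were not.

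**Figure D4:**
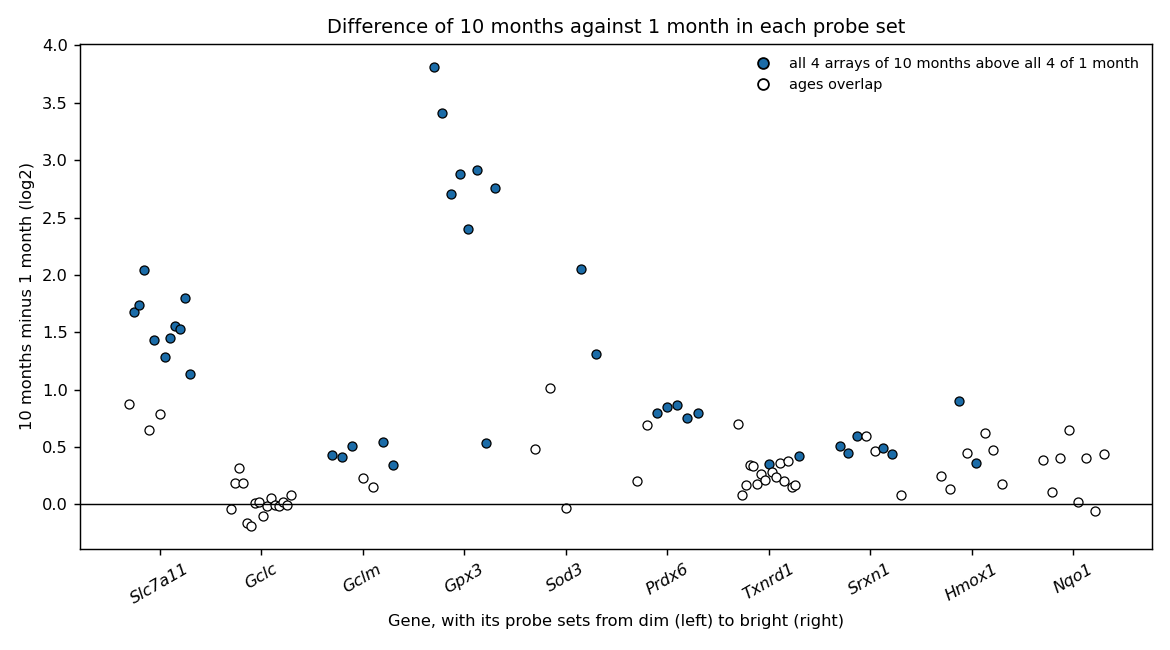
Difference of 10 months against 1 month (log2, vertical) in each of the 97 probe sets, grouped by gene and ordered from dim to bright within it; filled points are probe sets whose 4 arrays of 10 months all lay above all 4 of 1 month. Every Gpx3 point is filled, the Gclc points scatter around 0, and the brightest Srxn1 point at the right of its group lies near 0. The share of filled points over all probe sets is not given here.

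Outside the 10 genes, 110 further genes of glutathione and redox metabolism were listed, of which 98 had a value and 86 were tested. Of these, 27 rose and 10 fell at 10 months against 1 month, where 20.6% of all genes rose and 20.7% fell, with a median difference of 0.05, near the 0.04 of all genes. At 2 months against 1 month 4 were higher and 1 lower, where 3.31% of all genes were higher and 5.27% lower. At 4 months 7 were higher and 3 lower (6.93% and 8.24% of all genes), and at 6 months 10 and 3 (7.89% and 8.46%). At 10 months against 6 months 11 were higher and 1 lower (8.62% and 11.7%). The groups described next leave out the 10 genes, and some genes are in more than 1 group. None was called by limma in the other 2 comparisons, of 4 months against 2 months and of 6 months against 4 months, where 5 and 6 had an unadjusted p under 0.05.

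Among glutathione S-transferases 6 of 17 tested genes rose and 1 fell at 10 months against 1 month, where 20.6% and 20.7% of all genes did. Gstt3 and Gstt1, which conjugate glutathione to small electrophiles, rose at 4, 6 and 10 months. Gstt3 averaged 6.83 ± 0.14 at 10 months and 6.19 ± 0.10 at 1 month (SD, n = 4), a difference of 0.64 (adjusted p = 3.49e-06, limma), and was 0.40, 0.56 and 0.47 higher at 2, 4 and 6 months. Gstt1 was 0.69 higher at 10 months (adjusted p = 2.92e-05), 0.56 at 4 months and 0.58 at 6 months. Mgst1, the microsomal enzyme, was 0.98 ± 0.24 higher at 10 months (adjusted p = 0.00272), with 6.43 to 7.65 on the 6 arrays with high Optc and 5.56 to 6.47 on the others.

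Of the genes of glutathione synthesis and turnover 3 of 14 rose and 4 fell at 10 months against 1 month, with a median difference of -0.03, and 20.6% and 20.7% of all genes did so. Ggct, a gamma-glutamyl cyclotransferase, averaged 5.28 ± 0.22 at 10 months and 6.10 ± 0.16 at 1 month, a fall of 0.82 ± 0.12 (adjusted p = 2.92e-05, limma). It was also lower at 10 months against 6 months (-0.62, adjusted p = 0.00121, limma). Its mean at 10 months lay under 5.61, the filter's cutoff for a mean over all arrays. Ggt1, which splits glutathione outside the cell, was 0.31 higher at 10 months against 6 months (adjusted p = 0.0194). Oplah, the oxoprolinase, was 0.27 higher at 4 months against 1 month (adjusted p = 0.00399).

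Among glutathione peroxidases other than Gpx3 1 of 4 tested genes rose at 10 months against 1 month, near the 20.6% of all genes. This was Gpx8, a peroxidase of the endoplasmic reticulum, 0.33 ± 0.10 higher (adjusted p = 0.0102, limma). The phospholipid peroxidase Gpx4 was 0.34 higher at 6 months against 1 month (adjusted p = 0.017), from 2 probe sets. Sod2, the mitochondrial superoxide dismutase, was 0.21, 0.26 and 0.30 higher at 2, 6 and 10 months against 1 month (adjusted p = 0.0315, 0.0048 and 0.000414). It was the 1 of 3 tested dismutase and catalase genes other than Sod3 that rose at 10 months, where 20.6% of all genes rose.

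In the list of peroxiredoxins and the thioredoxin system, without Prdx6, Txnrd1 and Srxn1, 7 of 13 tested genes rose and 1 fell at 10 months against 1 month, with a median difference of 0.21, where 20.6% of all genes rose. Txnip, which binds and inhibits thioredoxin, was 0.46 ± 0.12 higher at 10 months against 1 month (adjusted p = 0.00345, limma) and 0.66 ± 0.12 higher at 10 months against 6 months (adjusted p = 0.000466). Sesn2, a stress-induced sestrin, was 0.29 higher at 4 months against 1 month (adjusted p = 0.00323), and Txnrd3 was 0.36 higher at 10 months against 6 months (adjusted p = 0.00568).

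Of selenoproteins and enzymes that repair oxidised protein 4 of 13 rose and 1 fell at 10 months against 1 month. Of all genes 20.6% rose and 20.7% fell. Selenom, a selenoprotein of the endoplasmic reticulum, was higher at each later age, by 0.27, 0.49, 0.32 and 0.60 at 2, 4, 6 and 10 months (adjusted p = 0.0345, 0.000336, 0.00793 and 5.81e-06, limma). Msrb3, a methionine sulfoxide reductase, was 0.40 higher at 10 months (adjusted p = 0.000745), and Selenos 0.24 higher (adjusted p = 0.0412).

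The list of NRF2 regulators and targets held 7 of the 10 genes. Of its other 23 tested genes 5 rose and 3 fell at 10 months against 1 month, near the 20.6% and 20.7% of all genes. Counts of higher and lower genes were 0 and 1 at 2 months against 1 month (3.31% and 5.27% of all genes). They were 1 and 3 at 4 months (6.93% and 8.24%) and 3 and 2 at 6 months (7.89% and 8.46%). At 10 months against 6 months they were 5 and 0 (8.62% and 11.7%). The iron exporter Slc40a1 fell by 0.37 at 6 months against 1 month (adjusted p = 0.00428, limma) and by 0.28 at 2 months (adjusted p = 0.0411). Cul3, the scaffold of the ligase that marks NRF2 for breakdown, fell by 0.27 at 4 months (adjusted p = 0.0377). Maff, a small partner of NRF2, was 0.41 higher at 10 months against 6 months (adjusted p = 0.00307).

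Over the 20 arrays the genes whose level ran most like that of Gpx3 were Fbln1 (Pearson r = 0.99), Optc (0.97) and Fbn1 (0.96), all of which encode proteins of the extracellular matrix. These r values are the highest of all genes tested and rest on a few arrays of high level, so they describe these arrays and carry no test. Fbln1 ran from 6.58 to 9.42 at 10 months and from 6.42 to 6.74 at 1 month. With the mean of each age subtracted the nearest genes were Fbln1 (0.99), Optc (0.98), Slc6a13 (0.96), Fbn1 (0.96) and Col18a1 (0.96), so the likeness held within ages. Those of Sod3 were Slc13a4 (0.94), Slc6a13 (0.94) and Gpx3 (0.92), and with the age means subtracted Gja1 (0.92), Slc13a4 (0.91), Gpx3 (0.90), Slc6a13 (0.89) and Mfap4 (0.88).

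Slc7a11 ran most like Efemp1 (0.97), Abi3bp (0.94) and Sft2d2 (0.92), with Efemp1 at 9.51 to 10.14 at 10 months and 8.92 to 8.99 at 1 month. Prdx6 ran most like Etnppl (0.96), Hs6st2 (0.96) and Fkbp9 (0.96), with Etnppl, an enzyme of phosphoethanolamine breakdown, at 8.42 to 8.77 at 10 months and 6.88 to 7.40 at 1 month. Srxn1 was nearest to Cdk5r1 (0.93), Gclm to Cd47 (0.89), Txnrd1 to Mybl1 (0.88), Gclc to Rpp30 (0.85), Hmox1 to Tnfrsf1b (0.80) and Nqo1 to Nr2f2 (0.78).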

How the data were processed

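Per the labels, total RNA of retinas was depleted of ribosomal RNA, copied into sense-strand cDNA and hybridised to Affymetrix exon arrays. The deposited table holds log2 intensities of 194293 probe sets on 20 arrays (0.986 to 14.3), which the authors made with RMA (robust multi-array average), per the submitters' processing notes. The RMA version and the build of the array are not given here by labels or headers. RMA equalises the distribution of the arrays, which would hide a change common to every gene.

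Probe sets with 1 gene in the platform annotation were used. It named several genes for 1328 and none for 13469, which were left out. Symbols were updated through the synonyms of a RefSeq table of GRCm38.p6 (2020 changed, 15744 of 15800 current). Each gene was summarised by median polish over its probe sets (median 9, with 806 genes on 1). Binding of probes to related genes was not tested. Genes in the lowest 25% of mean level were left out. limma 3.58.1 in R 4.3.3 was run on the other 11850 (lmFit and eBayes, 15 residual degrees of freedom, two-sided, Benjamini-Hochberg over all genes tested). The fit was tested on simulated data with known changes. The ages were compared in 7 pairs and by an F test. The number of arrays, 4 per age, limits the precision.

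The members, the wider lists and the tests were chosen with earlier results of these data known. All 10 members are described, and from each wider list up to 3 called genes with the largest change at 10 months against 1 month and up to 2 in each other comparison. Promoter windows of 6 members were searched for motifs on both strands. Alternatives changed the gene summary, the filter, the normalization, array weights, the eBayes settings, the arrays in the fit, a replicate block, covariates, and each array in turn. Figures were drawn with matplotlib 3.10.9.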

Additional observations from a re-analysis of the deposited data

Results flagged for a closer look

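In each of the 50 combinations of 10 genes and 5 ages, the 4 arrays were checked for 1 array that stood apart by Dixon's criterion, which sets the gap to the nearest array against the range of all 4, and 3 were found. Chance gives about 1 in 20 such groups, so 3 of 50 is near what chance alone would give. Slc7a11 in replicate 3 of 1 month was 5.78, where the next array was 5.60 and the lowest 5.57. Hmox1 in replicate 3 of 2 months was 6.98, where the others were 6.49 to 6.54. Sod3 in replicate 2 of 10 months was 6.26, where the others were 7.34 to 7.55, and that array is the only one of its age with low Optc.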

How the results depend on the processing

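Counts of the 10 genes called moved by more than 1.5 times in the following cases. At 2 months against 1 month (2 called) 1 was called with the mean of the probe sets, a filter of 50%, quantile normalization, fits on the 8 arrays compared, the ciliary body covariate or without the 6 arrays high in Optc, and 0 with the Y-linked covariate. At 6 months against 1 month (4) 2 were called with the brightest probe set and without those 6 arrays. At 10 months against 1 month (9) 5 were called with the 50% filter, which left 6 of the 10 genes to test, 5 with the pigment epithelium covariate, 5 with the ciliary body covariate and 4 without the 6 arrays. At 10 months against 6 months (4) 2 were called with the mean of the probe sets, the 50% filter, array weights, the pigment epithelium covariate or the Y-linked covariate, 1 with the ciliary body covariate or without the 6 arrays, and 0 with the brightest probe set. In the F test (7) 3 were called with the brightest probe set, 4 with the 50% filter and 4 without the 6 arrays. Leaving out 1 array at a time gave 1 to 2, 3 to 4, 2 to 4 and 7 to 9 genes at 2, 4, 6 and 10 months against 1 month, 1 to 4 at 10 months against 6 months and 5 to 7 in the F test. Over all 11850 genes these fits called 536 to 1042, 1333 to 1796, 1352 to 1848 and 4292 to 4668 genes against 1 month. They called 1843 to 2304 at 10 months against 6 months and 3972 to 5126 in the F test. With all arrays the 6 counts were 1017, 1798, 1937, 4896, 2411 and 4552. Of 1498 recomputed differences of single genes, 1393 kept direction and call, 96 lost the call and 8 gained one, while the difference of Srxn1 at 6 months against 1 month turned to -0.0257 with the brightest probe set. Other causes of lost calls were not tested. Replicate numbers did not pair the mice: deviations from the age means correlated above 0.1 in 10 of 40 pairs with the same number (median r = -0.03), and 4 of 20 arrays were closest to their own number. With the replicate block 2, 3, 3 and 8 genes were called at 2, 4, 6 and 10 months against 1 month, 4 at 10 months against 6 months and 5 in the F test. For most settings the calls over all genes are not given here. A smaller count under them is thus not shown to be particular to the 10 genes. Alternatives on ciliary body genes and Optc were chosen after seeing the data. Nqo1 and Slc7a11 lie near the dim end, where small differences are hard to see.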
